A study of Homo sapiens with 12 samples.

Results

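The megakaryocyte lineage genes described here were the platelet receptor genes ITGA2B, ITGB3, GP1BA, GP1BB and GP9, the granule protein genes PF4 and VWF, and the regulator genes FLI1, RUNX1 and MEIS1. They were taken by gene symbol, through the Ensembl identifiers in the count tables, and make up 10 of the 60609 genes listed there. The measurements were made in K562, a widely used human leukemia line derived from chronic myeloid leukemia at the blast crisis stage. Cells were treated for 48 h with DMSO, the solvent control (3 libraries), or with 10 μM FT671, a compound that inhibits the deubiquitinating enzyme USP7 (3 libraries), and total RNA depleted of ribosomal RNA was sequenced. The question was whether the expression of these genes differed between FT671-treated and DMSO-treated cells. The series also holds 6 ChIP samples, taken after 24 h of treatment, which were not analysed here.

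Megakaryocytes are the bone marrow cells that shed platelets. Their surface carries the fibrinogen receptor, an integrin made of the products of ITGA2B and ITGB3, and the receptor for von Willebrand factor, the GPIb-IX-V complex, to which GP1BA, GP1BB and GP9 contribute. Their granules store chemokines such as PF4 and adhesive proteins such as VWF. The transcription factors RUNX1 and FLI1, together with GATA1, drive the genes of the lineage, and MEIS1 is a homeobox factor of early progenitors and megakaryocytes. K562 cells are known as a line of mixed erythroid and megakaryocytic potential.

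Enough reads for a test were counted for 3 of the 10 genes, namely ITGA2B, RUNX1 and MEIS1. Mean expression of ITGA2B and RUNX1 was slightly lower after FT671, at 0.824 and 0.890 of the DMSO level, and neither passed an adjusted p-value of 0.05. The level of MEIS1 was about the same in both groups (ratio 1.03). ITGB3 and GP1BA had 45 and 50 counts in all 6 libraries together, VWF and FLI1 had 1 and 2, and GP1BB, GP9 and PF4 had 0 counts in every library.

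The upstream sequences of ITGA2B, RUNX1 and MEIS1, which were transcribed, and of GP9, which had no read, are shown because the known regulators of the lineage act through such regions. Each is the 250 bases before the RefSeq start of the gene (GRCh38.p14), read 5′ to 3′ along the gene's own strand. ITGA2B lies at chr17:44389650-44389899 (minus strand) and GP9 at chr3:129060529-129060778 (plus strand), both outside any GENCODE gene. RUNX1 lies at chr21:34888700-34888949 (minus strand) and MEIS1 at chr2:66434875-66435124 (plus strand), both in an intron of longer transcripts of the same gene. Capitals mark the words searched for on both strands, which were GATAA and GATAG (GATA factors), AGGAAG and CGGAAG (ETS factors, the family of FLI1), TGTGGT and TGCGGT (RUNX factors) and TGACAG (MEIS factors).
ITGA2B: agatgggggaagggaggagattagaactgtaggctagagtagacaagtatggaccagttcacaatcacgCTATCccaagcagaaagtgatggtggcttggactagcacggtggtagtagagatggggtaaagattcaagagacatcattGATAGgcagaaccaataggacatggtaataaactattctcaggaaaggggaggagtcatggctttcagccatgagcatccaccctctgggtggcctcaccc
GP9: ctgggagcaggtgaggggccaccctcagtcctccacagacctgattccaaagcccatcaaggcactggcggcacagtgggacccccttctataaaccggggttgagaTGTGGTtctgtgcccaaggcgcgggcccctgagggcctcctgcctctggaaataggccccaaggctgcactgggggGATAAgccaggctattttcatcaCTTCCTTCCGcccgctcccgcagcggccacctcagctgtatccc
RUNX1: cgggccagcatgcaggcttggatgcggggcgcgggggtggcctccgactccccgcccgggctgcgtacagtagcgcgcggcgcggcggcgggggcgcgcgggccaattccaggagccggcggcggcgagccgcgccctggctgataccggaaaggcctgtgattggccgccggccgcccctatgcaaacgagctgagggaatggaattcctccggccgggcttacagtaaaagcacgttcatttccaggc
MEIS1: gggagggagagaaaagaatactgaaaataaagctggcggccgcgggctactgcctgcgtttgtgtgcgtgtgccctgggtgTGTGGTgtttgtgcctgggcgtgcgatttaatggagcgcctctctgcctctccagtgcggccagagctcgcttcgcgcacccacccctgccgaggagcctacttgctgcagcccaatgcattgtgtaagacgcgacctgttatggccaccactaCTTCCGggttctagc

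The upstream region of ITGA2B held 2 GATA words, one on each strand, with their near ends 177 and 97 bases before the start, and none of the other words. That of GP9 held 1 GATA word 63 bases, 1 RUNX word 138 bases and 2 overlapping ETS words 39 and 35 bases before the start. MEIS1 had 1 ETS word 10 bases and 1 RUNX word 164 bases before its start. RUNX1 had none of these words in the window. Of 35116 RefSeq promoters, 31.9% held a GATA word, 40.8% an ETS word, 16.3% a RUNX word and 13% the MEIS word in the same 250 bases, so that each is common. The 4 regions differed in base composition, with a GC content of 48.8% for ITGA2B, 62.8% for GP9, 71.2% for RUNX1 and 59.6% for MEIS1. A RefSeq promoter sequence was found for 5 of the 10 genes, the other being GP1BB, and for ITGB3, GP1BA, PF4, VWF and FLI1 none is shown. The region of GP1BB, whose sequence is not printed, held 3 GATA words, 1 ETS word, 1 RUNX word and 1 MEIS word.

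Total counts ranged from 4555220 to 14250500 per library and came to 52139516, so that 1 read was worth between 0.0692 and 0.222 CPM (counts scaled to a common library total) in a library. A gene with 0 counts in all 6 libraries could have had up to 0.0577 CPM (3 counts in all), a limit that covers counting error only. CPM are given with library sizes scaled by edgeR's TMM method. The treatments were compared with edgeR's quasi-likelihood test in 13895 genes that passed the filter on low counts, with Benjamini-Hochberg adjustment over all of them. The p-values measure the spread between these libraries. The summed level of 14 erythroid markers was between 698 and 825 CPM in the DMSO libraries and between 785 and 810 CPM in the FT671 libraries, with 4 lower and 6 higher of 13 tested (30.8% and 46.2%, against 26.5% and 23.6% of all tested genes) and a median log2 fold change of 0.75. Most of this sum was TFRC, which fell from 565 ± 77.5 to 427 ± 10.1 CPM (SD, n = 3 each, adjusted p = 0.00176 from edgeR), while the globin gene HBZ rose from 39.0 ± 5.64 to 137 ± 9.67 CPM (SD, n = 3 each, adjusted p = 2.77e-08 from edgeR). Summed levels of 12 myeloid markers (63.2 to 67.5 CPM in DMSO, 81.7 to 88.5 CPM after FT671), of 10 lymphoid markers (20 to 24.0 and 27.5 to 34.0 CPM) and of 10 endothelial markers (32.9 to 36.1 and 44.7 to 52.9 CPM) were higher in every FT671 library than in every DMSO library, but each sum was mostly 1 gene, with means in DMSO and after FT671 of 52.7 and 73.8 CPM for LYZ, 18.3 and 25.6 CPM for CD3D and 32.4 and 46.6 CPM for EGFL7. In each of these 3 lists 3 markers were at 0 everywhere, among them ELANE, MS4A1 and CDH5. Of their few tested genes, 1 myeloid marker was lower (ITGAM, log2 fold change −0.79) and 2 were higher of 3, 1 lymphoid marker was higher of 2, and EGFL7, the only endothelial marker tested, was higher, and the part of other cell types in the results was not tested. In bulk RNA, fewer cells of a kind and less RNA per cell cannot be told apart.

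ITGA2B (ENSG00000005961, chromosome 17 from 44372180 to 44389649, minus strand) encodes the alpha chain of the fibrinogen receptor, an early surface marker of the lineage. It had 285, 216 and 101 counts in DMSO replicates 1, 2 and 3 and 78, 83 and 179 counts in FT671 replicates 1, 2 and 3. Scaled to the library, these were 19.7, 19.8 and 18.7 CPM in DMSO and 17.3, 15.0 and 16.0 CPM after FT671. Every FT671 library lay below every DMSO library. The means were 19.4 ± 0.63 and 16.1 ± 1.18 CPM (SD, n = 3 each), which gave −0.28 ± 0.118 (SE) on the log2 scale (adjusted p = 0.0632 from edgeR). The 95% interval of the log2 fold change, not adjusted for the number of genes, ran from −0.53 to −0.03, which corresponds to 0.691 to 0.982 of the DMSO level. The gene shares no exon with another gene in the annotation. ITGA2B passed 0.05 when libraries were scaled by their totals alone (adjusted p = 0.0408 from edgeR) and when DMSO replicate 3 was left out (adjusted p = 0.0349 from edgeR), and over the other alternatives the adjusted p ranged from 0.0593 to 0.272. Correcting for gene length or GC content moved the log2 fold change to −0.19 and −0.18.

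ITGB3 (ENSG00000259207, chromosome 17 from 47253827 to 47313743, plus strand) encodes the beta chain that pairs with the product of ITGA2B on platelets and with other alpha chains elsewhere. Only 11, 11 and 2 counts were found in the DMSO libraries and 3, 6 and 12 in the FT671 libraries. The groups overlapped, with 0.762, 1.01 and 0.370 CPM in DMSO and 0.666, 1.08 and 1.07 CPM after FT671. Pooled over libraries, the level was 0.780 CPM in DMSO and 0.989 CPM after FT671, a ratio of 1.27 with an exact interval of 0.671 to 2.38 for counting error only. Of the 6829 exon bases of ITGB3, 2266 (33.2%) are shared with ENSG00000259753, a gene on the same strand that had 0 counts. STAR's gene counting leaves out reads that overlap more than 1 gene, so the ITGB3 counts come from the remaining bases.

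Per kilobase of exon, the integrin chains differed widely in level. The length used was that of all annotated exons of a gene merged. Levels of genes with many transcript forms can thus be understated, and comparisons between genes are approximate. ITGA2B stood at 3.41 ± 0.111 CPM per kb in DMSO and 2.83 ± 0.207 CPM per kb after FT671 (SD, n = 3 each). ITGB3 stood at 0.104 ± 0.0471 and 0.138 ± 0.0348 CPM per kb (SD, n = 3 each), with the exon bases it shares counted in its length. The lowest ITGA2B library, at 2.63 CPM per kb, was above the highest ITGB3 library, at 0.159 CPM per kb. Because ITGB3 was under the filter, the ratio of the chains was not tested.

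GP1BA (ENSG00000185245, chromosome 17 from 4932277 to 4935023, plus strand) encodes the chain of the GPIb-IX-V complex that binds von Willebrand factor. It had 9, 20 and 8 counts in DMSO and 0, 6 and 7 counts after FT671. On the CPM scale these were 0.623, 1.83 and 1.48 in DMSO and 0, 1.08 and 0.626 after FT671, so that the groups overlapped. The pooled level was 1.20 CPM in DMSO and 0.612 CPM after FT671, a ratio of 0.509. The exact interval of this ratio ran from 0.248 to 0.980, but it covers counting error only and not the spread between libraries, and the gene was under the filter for the test. With single libraries left out the ratio ranged from 0.357 to 0.715. GP1BA shares 97 of its 2514 exon bases (3.86%) with CHRNE on the opposite strand, an acetylcholine receptor subunit gene. CHRNE was lower after FT671 (3.8 ± 0.371 to 1.28 ± 0.356 CPM, SD, n = 3 each, log2 fold change −1.47, adjusted p = 0.000785 from edgeR). The strand setting of the counting is not given in the sources used here, so reads over the shared bases were either left out of both genes or assigned by strand.

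GP1BB (ENSG00000203618, chromosome 22 from 19723539 to 19724771, plus strand) encodes the chain linked to the GP1BA product by a disulfide bond, and it had 0 counts in every library. All of its 959 exon bases are shared with the same-strand readthrough gene ENSG00000284874, and 412 of them (43.0%) with SEPTIN5, a septin gene that lies just upstream. A read on GP1BB therefore overlaps more than 1 gene, and its count of 0 says nothing of its expression. The readthrough gene itself had 4, 3 and 1 counts in DMSO and 1, 0 and 1 after FT671. SEPTIN5 rose from 8.17 ± 0.711 to 11.6 ± 0.754 CPM (SD, n = 3 each, log2 fold change 0.47, adjusted p = 0.0172 from edgeR).

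GP9 (ENSG00000169704, chromosome 3 from 129060779 to 129062406, plus strand) encodes the small chain that the GPIb complex needs to reach the surface. It also had 0 counts in every library, and it shares no exon with another gene. Its expression was not detectable at this depth, which allows up to 0.0577 CPM over all libraries. The GATA, ETS and RUNX words in the GP9 sequence above thus stood upstream of a gene with no counted read.

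PF4 (ENSG00000163737, chromosome 4 from 73980811 to 73982027, minus strand) encodes a chemokine of the platelet alpha granule. It had 0 counts in all 6 libraries and shares no exon with another gene. PF4V1, a near-identical copy of PF4, also had 0 counts everywhere. Reads that fit PF4 and PF4V1 equally well would be counted for neither by STAR. The limit of 0.0577 CPM therefore covers only reads that fit PF4 alone. PPBP, the neighboring chemokine gene that is also highly expressed in platelets, had 2 counts in all.

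VWF (ENSG00000110799, chromosome 12 from 5948877 to 6124770, minus strand) encodes von Willebrand factor, the adhesive protein of megakaryocytes and endothelial cells. It had 1 count, in DMSO replicate 1, and 0 in the other libraries, under the limit of 3 counts in both groups. Its partial pseudogene copy VWFP1 had 4, 3 and 0 counts in DMSO and 0, 1 and 8 counts after FT671. Reads that fit VWF and VWFP1 equally well would be counted for neither by STAR.

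RUNX1 (ENSG00000159216, chromosome 21 from 34787801 to 36004667, minus strand), a DNA-binding factor required for megakaryocyte maturation and mutated in inherited platelet disorders, had the highest level of the 10 genes. It had 1596, 1167 and 577 counts in DMSO and 438, 512 and 1106 after FT671. These corresponded to 111, 107 and 107 CPM in DMSO and 97.3, 92.4 and 98.8 CPM after FT671. Again every FT671 library lay below every DMSO library, and the difference was small. The means were 108 ± 2.16 and 96.2 ± 3.38 CPM (SD, n = 3 each), with a log2 fold change of −0.17 ± 0.0734 (SE, adjusted p = 0.0720 from edgeR). The 95% interval ran from −0.32 to −0.01, or 0.798 to 0.993 of the DMSO level. RUNX1 passed 0.05 with scaling by library totals alone (adjusted p = 0.0342 from edgeR) and without DMSO replicate 3 (adjusted p = 0.0250 from edgeR), and over the other alternatives the adjusted p ranged from 0.0645 to 0.795. A correction for gene length moved its log2 fold change to −0.03.

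CBFB encodes the partner subunit that raises the affinity of RUNX1 for DNA. It had 109 ± 3.68 CPM with DMSO and 98.2 ± 2.37 CPM with FT671 (SD, n = 3 each), with a log2 fold change of −0.15 (adjusted p = 0.110 from edgeR). The ratio of RUNX1 to CBFB counts within a library, which does not depend on scaling, was 1.05, 0.986 and 0.944 in DMSO and 1.01, 0.918 and 1.01 after FT671. These ratios overlapped between the groups, with a mean difference of −0.018 on the log2 scale (two-sided exact permutation test over 20 splits, p = 0.7, where 0.1 is the smallest p that 3 against 3 libraries allow). It was the only pair that could be tested among 8 pairs of partners planned, since in the other 7 at least 1 gene had too few reads.

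FLI1 (ENSG00000151702, chromosome 11 from 128686535 to 128813267, plus strand) is the ETS factor that activates megakaryocyte genes such as GP9 and ITGA2B. Only 2 counts were found, both in DMSO replicate 2, and no FT671 library had any, under the limit of 3 counts in both groups. A small share of its exon bases (2.08% and 2.02%) lies opposite the lncRNA genes ENSG00000245008 and SENCR, which had 0 counts. ERG, the closest relative of FLI1 in the regulator list, had 1 count in all. ETV6, an ETS-family repressor needed for platelet production, was by contrast measured at 72.4 ± 5 CPM with DMSO and 69.9 ± 2.58 CPM with FT671 (SD, n = 3 each, log2 fold change −0.05, adjusted p = 0.658 from edgeR), a difference whose sign turned positive with a correction for gene length (0.0723). KLF1, an erythroid factor that opposes FLI1, fell from 151 ± 21.5 to 85.9 ± 4.45 CPM (SD, n = 3 each, log2 fold change −0.82, adjusted p = 1.47e-05 from edgeR).

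MEIS1 (ENSG00000143995, chromosome 2 from 66433452 to 66573869, plus strand) encodes a TALE homeodomain protein that binds DNA together with HOX and PBX proteins. It had 98, 84 and 41 counts in DMSO and 27, 43 and 92 counts after FT671. The levels were 6.79, 7.69 and 7.58 CPM in DMSO and 6, 7.76 and 8.22 CPM after FT671, and the FT671 libraries lay on either side of the DMSO libraries. The means were 7.35 ± 0.494 and 7.33 ± 1.17 CPM (SD, n = 3 each), with a log2 fold change of 0.04 ± 0.175 (SE, adjusted p = 0.855 from edgeR). Its 95% interval, −0.33 to 0.42, spans 0.795 to 1.34 of the DMSO level, so that changes within these bounds were not excluded. The sign of the log2 fold change depended on single libraries (−0.03 without DMSO replicate 1, −0.07 without FT671 replicate 3). MEIS1-AS2 lies opposite 1437 of the 10942 exon bases of MEIS1 (13.1%) and had between 0 and 10 counts per library. PBX3, a partner of MEIS proteins, had 40 counts in all and was not tested.

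**Figure D1:**
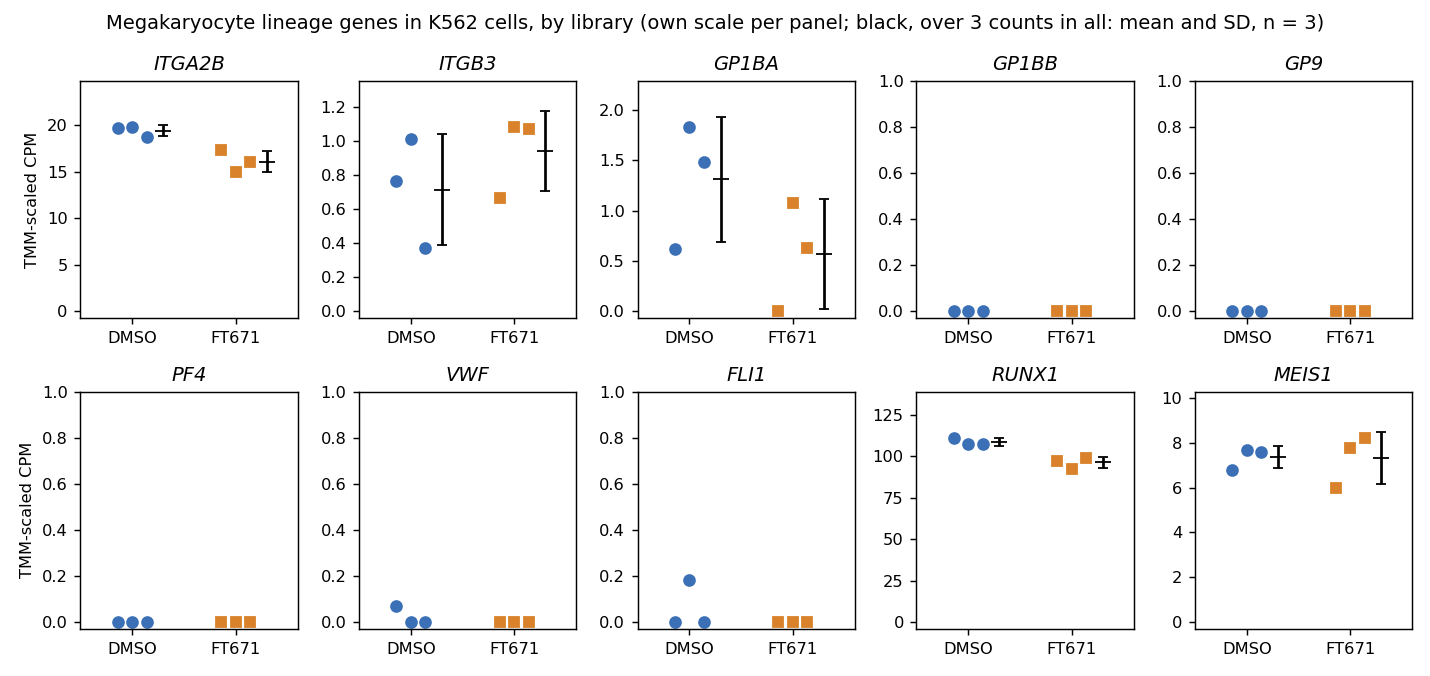
Expression of the 10 megakaryocyte lineage genes in each library, in TMM-scaled CPM on the vertical axis with its own scale in each panel; circles are DMSO, squares are FT671, and black marks give the mean and SD of 3 libraries for genes with over 3 counts in all. The FT671 squares lie below all DMSO circles for ITGA2B (15.0 to 17.3 against 18.7 to 19.8 CPM) and RUNX1 (92.4 to 98.8 against 107 to 111 CPM), overlap them for MEIS1, ITGB3 and GP1BA, and lie at 0 for GP1BB, GP9, PF4, VWF and FLI1.

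Ordered by level per kilobase of exon in DMSO, RUNX1 was first with 6.94 ± 0.139 CPM per kb, followed by ITGA2B with 3.41 ± 0.111, MEIS1 with 0.672 ± 0.0452, GP1BA with 0.522 ± 0.247 and ITGB3 with 0.104 ± 0.0471 CPM per kb (SD, n = 3 each). The libraries of MEIS1 (0.620 to 0.703 CPM per kb) and GP1BA (0.248 to 0.729 CPM per kb) overlapped, so these neighbors were not separated by the spread, whereas the other steps among these 5 genes showed no overlap. After FT671 the order was the same, with 6.17 ± 0.217, 2.83 ± 0.207, 0.669 ± 0.107, 0.226 ± 0.216 and 0.138 ± 0.0348 CPM per kb (SD, n = 3 each), and there GP1BA and ITGB3 overlapped. FLI1 and VWF, with 2 and 1 counts, followed at 0.00761 and 0.00222 CPM per kb in DMSO. Among all tested genes, the level of RUNX1 per kilobase was above that of 58.2% in DMSO and 56.8% after FT671. That of ITGA2B was above 39.7% and 36.9%, and that of MEIS1 above 10.7% and 11%. On this approximate scale, RUNX1, ITGA2B and MEIS1 thus ranged from the middle to the low end of the tested genes.

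None of the 3 tested genes was called in either direction by edgeR at an adjusted p of 0.05, and 2 of them, ITGA2B and RUNX1, had an unadjusted p under 0.05 (0.0333 and 0.0389). In DESeq2's Wald test, too, none was called. Of all tested genes, 26.5% were lower and 23.6% were higher after FT671 at an adjusted p of 0.05. At 1e-05, the threshold in the study's methods, 4.13% were lower and 1.79% were higher, and no lineage gene passed. In 30.3% of all tested genes every FT671 library lay below every DMSO library, as in 2 of the 3 lineage genes. The median log2 fold change was −0.17 over the 3 tested genes and −0.01 over all tested genes. Of the 10 genes 7 were not tested, 6 for too few counted reads and GP1BB because its reads could not be counted apart from those of other genes. These counts therefore describe 3 genes and not the set.

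The other genes of the lineage were described with 5 wider lists of 117 genes in all, of which 90 were tested. These lists were chosen with earlier results of these data known. At an adjusted p of 0.05, 35 of the 90 (38.9%) were lower and 20 (22.2%) were higher after FT671, against 26.5% and 23.6% of all tested genes. At 1e-05, 10 of the 90 were lower and 2 were higher, against 4.13% and 1.79% of all tested genes. The median log2 fold change was −0.10. The split moved to 29 lower and 26 higher with a correction for gene length, and to 32 lower and 28 higher with a correction for GC content. The shares of all tested genes under the alternatives are not given here, so counts under them cannot be set against 26.5% and 23.6%.

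**Figure D2:**
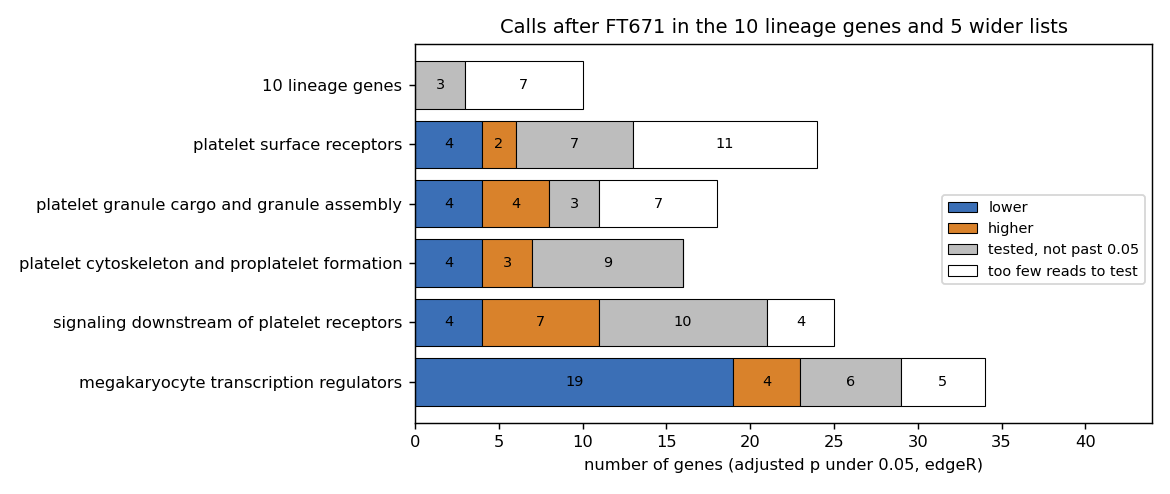
Number of genes (horizontal axis) that were lower, higher, tested without passing an adjusted p of 0.05, or left with too few counted reads to test, in the 10 lineage genes and the 5 wider lists; each bar is 1 list. Of the 10 lineage genes 3 were tested and none passed, and the list of transcription regulators has the most genes lower, 19 of 34.

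The list of 34 megakaryocyte transcription regulators holds partners and relatives of RUNX1, FLI1 and MEIS1 beside other factors of the lineage and of neighboring lineages, such as KLF1, MYB, SRF and IKZF1. This list was chosen with earlier results of these data known, so its shares are not independent of them. Of 29 tested, 19 (65.5%, against 26.5% of all tested genes) were lower and 4 (13.8%, against 23.6%) higher, with a median log2 fold change of −0.35. At 1e-05, 7 passed, all lower, against 4.13% lower and 1.79% higher of all tested genes. Across all alternatives at 0.05, between 16 and 20 were lower and 4 or 5 higher. The largest fall was that of GFI1B, a zinc finger repressor required for megakaryocyte and erythroid development, from 167 ± 7.02 to 31.0 ± 2.57 CPM (SD, n = 3 each), with a log2 fold change of −2.45 ± 0.0880 (SE, adjusted p = 8.85e-10 from edgeR). MAFG, a small MAF protein that pairs with NFE2 on platelet genes, fell from 118 ± 7.97 to 45.1 ± 0.675 CPM (SD, n = 3 each, log2 fold change −1.39, adjusted p = 4.65e-08 from edgeR). NFE2 itself fell by 0.52 on the log2 scale (adjusted p = 0.000113 from edgeR). The other 5 past 1e-05, named after their values were seen, were PKNOX1 (−1.61), ZFPM1 (−1.20), SRF (−1.0), MRTFA (−0.95) and TAL1 (−0.94). PKNOX1 is a TALE homeodomain relative of MEIS1, and ZFPM1 is the cofactor of GATA1.

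GATA1, the central factor of the lineage together with RUNX1, fell from 297 ± 35.9 to 244 ± 12 CPM (SD, n = 3 each, log2 fold change −0.29, adjusted p = 0.0128 from edgeR), a call that was lost without DMSO replicate 1 (adjusted p = 0.0745 from edgeR) or FT671 replicate 3 (adjusted p = 0.0798 from edgeR). GATA2, its counterpart in progenitors, did not pass (294 ± 25.6 and 331 ± 7.05 CPM, SD, n = 3 each, log2 fold change 0.17, adjusted p = 0.0741 from edgeR), but passed as higher with corrections for gene length and GC content (adjusted p = 0.0109 and 0.00189 from edgeR) and without DMSO replicate 2 (adjusted p = 0.0253 from edgeR). The highest rises were those of MAFF (log2 fold change 0.65, adjusted p = 0.00207 from edgeR), another small MAF protein, and PBX2 (0.51, adjusted p = 9.92e-05 from edgeR), a PBX partner of MEIS proteins. Several of these genes share some exon bases with another gene, GFI1B 5.72% with TSC1 on the opposite strand (log2 fold change −0.30), GATA2 1.59% with GATA2-AS1 (−0.85), MAFF 5.81% with PLA2G6 (−0.16), MAFG 4.27% with the opposite-strand lncRNA gene ENSG00000264769 (−0.96, adjusted p = 0.000639 from edgeR) and 2% with SIRT7 (−0.11), PBX2 15.2% with ENSG00000273333, which had 0 counts, and TAL1 14.8% with the lncRNA gene ENSG00000226252 (−0.01).

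**Figure D3:**
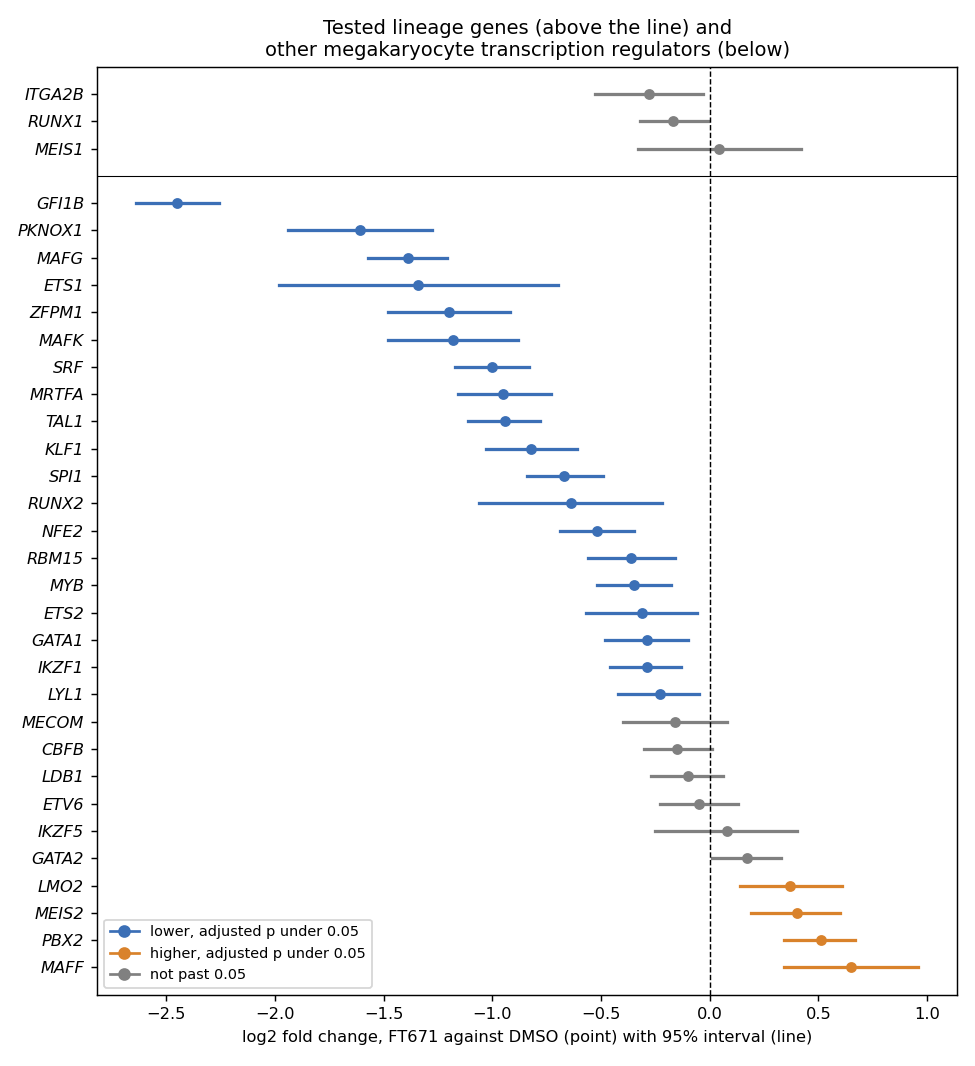
Log2 fold change of FT671 against DMSO (horizontal axis, points) with unadjusted 95% intervals (lines) for ITGA2B, RUNX1 and MEIS1 above the line and for 29 other megakaryocyte transcription regulators below it, from edgeR over 3 libraries per group. The 3 lineage genes lie at −0.28, −0.17 and 0.04, and none passed an adjusted p of 0.05. At that threshold 19 regulators are lower, down to −2.45 for GFI1B, and 4 are higher, up to 0.65 for MAFF.

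Among 24 further platelet surface receptors, the companions of ITGA2B and GP1BA, 13 were tested, of which 4 were lower and 2 higher (30.8% and 15.4%, against 26.5% and 23.6% of all tested genes), with a median log2 fold change of 0.08. Another 5 were at 0 counts everywhere. F2RL3, a thrombin receptor, fell by 1.56 on the log2 scale (adjusted p = 0.000301 from edgeR), and P2RX1, an ATP-gated channel, fell by 0.76 (adjusted p = 0.000105 from edgeR). The tetraspanin CD9 rose by 0.83 (adjusted p = 0.0120 from edgeR, and 0.0772 without FT671 replicate 2) and the collagen receptor GP6 by 0.52 (adjusted p = 0.0100 from edgeR). Of the exon bases of GP6, 9.99% are shared with the same-strand lncRNA gene ENSG00000267149, at 0.315 CPM in DMSO and 0.583 CPM after FT671. Another 1.63% lie opposite GP6-AS1 (log2 fold change 0.20, adjusted p = 0.516 from edgeR). The number lower was 2 without FT671 replicate 3, and the number higher was 1 without FT671 replicate 2 and 4 with a correction for GC content.

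Among 18 genes of granule cargo and granule assembly, the list nearest to PF4 and VWF, 11 were tested, of which 4 were lower and 4 higher (36.4% each, against 26.5% and 23.6% of all tested genes), and the median log2 fold change was 0.19. NBEAL2, required for alpha granule formation, fell from 69.5 ± 1.11 to 37.9 ± 1.61 CPM (SD, n = 3 each, log2 fold change −0.87, adjusted p = 2.99e-06 from edgeR). PLEK, a protein kinase C substrate of platelets, fell by 1.18 from a low level of 2.25 CPM (adjusted p = 0.00804 from edgeR), which DESeq2 did not call (adjusted p = 0.0611). TGFB1 and TIMP1, whose products are carried in alpha granules and made by many other cells, both rose by 0.54 (edgeR, adjusted p = 1.52e-05 for TGFB1 and adjusted p = 0.000254 for TIMP1), and 6.59% of the exon bases of TGFB1 lie opposite HNRNPUL1 (log2 fold change −0.75). The number lower was 2 in DESeq2's test and without DMSO replicate 1, DMSO replicate 2 or FT671 replicate 2.

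All 16 genes of the platelet cytoskeleton were tested, and 4 were lower and 3 higher (25% and 18.8%, near the 26.5% and 23.6% of all tested genes), with a median log2 fold change of −0.10. TPM4, a tropomyosin of platelets, fell from 303 ± 6.27 to 114 ± 7.95 CPM (SD, n = 3 each, log2 fold change −1.40, adjusted p = 1.70e-08 from edgeR), and 6.49% of its exon bases lie opposite ENSG00000279198 (log2 fold change −1.04, adjusted p = 5.88e-05 from edgeR). TLN1, encoding talin, which binds the tail of the ITGB3 product, fell by 0.61 (adjusted p = 6.58e-06 from edgeR). MYL9 rose by 0.92 (adjusted p = 0.0110 from edgeR; 0.0802 without DMSO replicate 1) and WAS by 0.40 (adjusted p = 0.00124 from edgeR). TUBB1, the beta tubulin of platelets, did not pass (log2 fold change 0.14, adjusted p = 0.704 from edgeR), and 35.5% of its exon bases lie opposite ATP5F1E (log2 fold change 0.68). The number lower was 7 without DMSO replicate 3, and the number higher was 1 without DMSO replicate 1 and 5 with a correction for GC content.

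Of 25 genes that act in signaling downstream of these receptors, 21 were tested, of which 4 were lower and 7 higher (19% and 33.3%, against 26.5% and 23.6% of all tested genes), with a median log2 fold change of 0.05. STAT5A, a transcription factor activated by cytokine signaling, rose from 439 ± 16.3 to 674 ± 22.3 CPM (SD, n = 3 each, log2 fold change 0.62, adjusted p = 5.40e-06 from edgeR), and 6.5% of its exon bases lie opposite STAT5B (log2 fold change −0.10). LCP2, an adaptor below GP6, rose by 0.71 (adjusted p = 3.65e-06 from edgeR). SYK, the kinase upstream of LCP2, fell by 0.33 (adjusted p = 0.00449 from edgeR), and PIK3CG, a phosphoinositide kinase, fell by 0.69 (adjusted p = 1e-05 from edgeR, at the stricter threshold but not under it). The number lower was 2 in DESeq2's test, with a correction for gene length (10 higher) and without DMSO replicate 1, FT671 replicate 2 or FT671 replicate 3.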

How the data were processed

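RNA was isolated from K562 cells treated with DMSO or 10 μM FT671 for 48 h, and sequenced after ribosomal depletion (KAPA HyperPrep, RiboErase). STAR (two-pass mode, hg38) was run on the paired-end reads by the authors, who deposited unnormalized read counts per gene; the STAR version, annotation release and strand setting are not given in the sources used here. Their own comparison used DESeq2.

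Of 60609 genes, 60295 were matched by Ensembl identifier to GENCODE release 44 for symbols, hg38 positions, exon length and overlaps. Promoters were those of RefSeq (GRCh38.p14). Genes were filtered with filterByExpr (13895 kept), scaled by TMM and tested with edgeR 4.0.16 (R 4.3.3) by the quasi-likelihood test without covariates. Depth was between 4555220 and 14250500 counts. Pooled ratios of untested genes have exact conditional intervals. For partner ratios 0.5 was added to each count.

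Genes were named by a rule, comprising the 10 lineage genes, fixed partners, genes overlapping a lineage gene, and per list the 2 lower and 2 higher genes with the smallest adjusted p among those called at 0.05 with a mean of at least 1 CPM. The lineage genes and lists were chosen with earlier results of these data known. Alternatives were DESeq2 size factors, library totals alone, no filter, at least 10 counts in every library, DESeq2 1.42.0, a replicate block, corrections for gene length and GC content (loess, span 0.3, with and without the block), and leaving out each library. A few genes named by the rule are not reported here.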

Additional observations from a re-analysis of the deposited data

How the results depend on the processing

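The calls for ITGA2B and RUNX1 lay close to the threshold. The number of lineage genes called lower by edgeR, 0, became 2 with scaling by library totals alone, and ranged from 0 to 2 with each library left out in turn (2 without DMSO replicate 3); none was called higher under any alternative. Of 48 values of the tested lineage genes under alternatives, 41 kept their direction and side of the threshold, 4 gained a call and 3 changed sign. The cause was not tested. MEIS1 ranged from −0.0697 to 0.143 and TUBB1 from −0.0634 to 0.388 on the log2 scale with single libraries left out. ETV6 turned to 0.0723 with a correction for gene length and to 0.0712 with the block added. The median log2 fold change of the 3 tested genes moved to −0.0327 with a correction for gene length and to −0.025 with the block added. The difference in RUNX1:CBFB ratio ranged from −0.0533 to 0.0283 with single libraries left out. Of the 90 tested genes of the wider lists, 10 were lower and 2 higher at 1e-05, against 4.13% and 1.79% of all tested genes.

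The paper describes the RNA-seq libraries as coming from independent experiments, and does not say whether same-numbered libraries shared an experiment. Same-numbered libraries did not deviate together in every pair (Pearson's r across genes of 0.115, −0.0605 and 0.140). These correlations cannot settle whether the libraries were paired. The main test used no pairing, and the replicate block was an alternative. With the replicate block no lineage gene was called, MEIS1 was at −0.00689, the RUNX1:CBFB difference was −0.0183, and 35 genes of the wider lists were lower and 21 higher. Depth limits ITGB3, GP1BA, GP9, PF4, VWF and FLI1. The overlap with other genes limits GP1BB and also ITGB3. Reads that fit PF4V1 or VWFP1 equally well would be missing from PF4 and VWF.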
